A study of Mus musculus with 2 samples.

Results

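Cluster 10 of the salivary gland cells is the cluster whose leading genes are those of red blood cell formation. It was taken as the authors clustered it, by its column in the deposited table of cluster means over all cells and by its mock and ligated columns in the same table split by operation. It held 145 cells, 85 of 4199 in the mock library and 60 of 11406 in the ligated library, out of 15605 cells in 12 clusters. These cell numbers were recovered from the means. The mice were female C57BL6/J mice of 14 weeks. In the ligated group a metal clip stayed on the main ducts of both the submandibular and the sublingual gland for 14 days. In the mock group the ducts were located but not closed, and the mice healed for 14 days. Each group has 1 droplet library, made from 2 pooled submandibular and sublingual glands, so no difference between the groups has a replicate check and no p-value is given. Both libraries were enriched for stroma, by bead depletion of cells bearing EpCAM, an epithelial surface protein, and Ter119, a surface antigen of red blood cells and late erythroblasts, followed by removal of dead cells.

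Red blood cells arise from erythroblasts that make haemoglobin from alpha and beta globin chains and haem, then shed the nucleus and clear mitochondria and ribosomes as reticulocytes. Haem is made from glycine in mitochondria, beginning with the erythroid enzyme Alas2, and receives its iron from ferrochelatase, Fech. In the adult mouse this takes place in bone marrow and spleen, and the salivary gland is reached by circulating red cells and reticulocytes through its vessels. The genes of this programme are commonly switched on by the GATA factor Gata1 and the factor Klf1, which binds CACCC sequences.

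The promoter windows of the 4 adult globin genes and Alas2 are shown because these 5 genes set the cluster apart from every other cluster. The sequences are RefSeq's, on build GRCm38.p6, and each is the 250 bases before the annotated start, written 5′ to 3′ on the gene's own strand. Capitals mark 3 motifs searched on both strands: the GATA motif in its spellings AGATAA or AGATAG or TGATAA or TGATAG, the CACCC motif and the CCAAT motif.
Hbb-bs, minus strand, chr7:103827929-103828178: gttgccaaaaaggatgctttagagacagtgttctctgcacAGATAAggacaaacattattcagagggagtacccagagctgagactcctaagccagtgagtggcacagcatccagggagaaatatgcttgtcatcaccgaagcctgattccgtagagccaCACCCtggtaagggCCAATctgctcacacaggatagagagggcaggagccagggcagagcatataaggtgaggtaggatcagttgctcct
Hbb-bt, minus strand, chr7:103813924-103814173: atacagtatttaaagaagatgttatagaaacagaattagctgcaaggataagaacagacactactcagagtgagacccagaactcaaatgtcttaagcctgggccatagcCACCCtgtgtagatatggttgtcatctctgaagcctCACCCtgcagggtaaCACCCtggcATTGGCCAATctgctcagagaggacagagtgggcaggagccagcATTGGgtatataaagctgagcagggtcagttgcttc
Hba-a1, plus strand, chr11:32283422-32283671: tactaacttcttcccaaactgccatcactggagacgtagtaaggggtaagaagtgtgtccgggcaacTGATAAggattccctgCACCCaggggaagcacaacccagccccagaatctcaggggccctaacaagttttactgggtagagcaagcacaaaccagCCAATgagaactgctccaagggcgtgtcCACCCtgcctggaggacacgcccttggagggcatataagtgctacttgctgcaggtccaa
Hba-a2, plus strand, chr11:32296242-32296491: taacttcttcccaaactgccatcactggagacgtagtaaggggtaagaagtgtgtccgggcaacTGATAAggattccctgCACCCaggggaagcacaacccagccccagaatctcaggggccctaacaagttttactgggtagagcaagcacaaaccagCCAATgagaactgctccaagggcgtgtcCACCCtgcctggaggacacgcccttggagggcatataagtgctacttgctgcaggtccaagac
Alas2, plus strand, chrX:150547167-150547416: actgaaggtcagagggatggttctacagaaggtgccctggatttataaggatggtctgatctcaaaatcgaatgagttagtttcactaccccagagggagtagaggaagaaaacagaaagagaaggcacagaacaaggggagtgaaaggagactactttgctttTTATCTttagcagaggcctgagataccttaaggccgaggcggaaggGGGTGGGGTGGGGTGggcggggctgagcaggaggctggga
The genes follow their windows at chr7:103826523-103827928 (Hbb-bs), chr7:103812524-103813923 (Hbb-bt), chr11:32283672-32284486 (Hba-a1), chr11:32296492-32297310 (Hba-a2) and chrX:150547417-150570622 (Alas2). The windows of Hbb-bs, Hba-a1 and Hba-a2 hold all 3 motifs, that of Hbb-bt holds CACCC and CCAAT, and that of Alas2 holds GATA and CACCC. Of 32851 such windows in the reference table, 26.5% hold a GATA motif, 52.0% CACCC, 33.8% CCAAT and 3.92% all 3, so a match describes the letters and not a bound site. In the Hbb-bt window 1 CCAAT match lies directly beside another on the opposite strand. The windows of Hba-a1 and Hba-a2 are identical over all 247 bases that align, offset by 3 bases. Those of Hbb-bs and Hbb-bt are 71.7% identical over 244 aligned bases.

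Each value gives the molecules of a gene, counted by unique molecular identifiers (UMIs), per 10000 UMIs of a cell, averaged on a linear scale over the cluster's cells. In both libraries together, 13 of 2309 genes with a value of at least 0.5 stood at least 2-fold above the highest other cluster after 0.1 was added to both values (0.563%). The cluster was built from these cells' expression, so this describes it and tests nothing. Among them were Hbb-bs at 1908, against 6.84 in the highest other cluster, Hba-a1 at 701 (2.77), Hba-a2 at 522 (2.25), Hbb-bt at 248 (0.918) and Alas2 at 4.19 (0.0332). They went on with Retnla at 1.66 (0.127), a secreted protein of macrophages and other cells, Fam220a at 1.15 (0.186) and Fam46c at 0.824 (0.175). Fam46c is listed only in the mock library, and joined with its other name Tent5c it stood at 1.12 against 0.672 in cluster 5, a log2 ratio of 0.66, which leaves 12 genes above 2-fold. They also held Bpgm at 3.26 (0.989), which makes the bisphosphoglycerate that lowers haemoglobin's affinity for oxygen, Ube2l6 at 1.502 (0.461), Mkrn1 at 2.87 (0.976) and Slc25a37 at 0.820 (0.332), the mitochondrial iron importer mitoferrin. Epb41 at 1.59 (0.865), a protein of the red cell skeleton, and Tfdp2 at 0.727 (0.401), a partner of cell cycle transcription factors, were highest here too but below 2-fold. Just inside the threshold stood Slc25a37 with a log2 ratio of 1.09, and just outside it Epb41 with 0.81.

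All 4 markers of the label (Hbb-bs, Hba-a1, Hba-a2 and Alas2) were therefore highest in this cluster, in both libraries. The rest of its profile was not that of a single erythroid cell type. Over the non-globin genes, its Spearman correlation with endothelial-like cluster 0 was 0.89 in mock cells (2576 genes) and 0.79 in ligated cells (3115 genes). With the second endothelial-like cluster, 4, it was 0.81 and 0.76, with cycling cluster 11 it was 0.62 and 0.45, with cluster 8 it was 0.32 and 0.63, and with macrophage-like cluster 5 it was 0.49 and 0.59. These correlations are across genes of the same libraries, which share depth and free RNA, and genes are not independent replicates. The cluster is therefore called the erythroid-gene cluster here, after its leading genes. Fewer erythroid cells and less erythroid RNA per cell cannot be told apart in its means.

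The cluster took 2.02% of mock cells (exact Clopper-Pearson 95% interval 1.62% to 2.50%) and 0.526% of ligated cells (0.402% to 0.677%). The intervals cover counting error only and do not overlap, but depletion of Ter119-bearing cells acted on these shares and its efficiency in each library was not measured. A share also depends on the size of the other clusters. Cluster 1 took 16.2% of mock and 29.4% of ligated cells, cluster 2 took 3.69% and 12.2%, and cluster 5 took 1.83% and 5.96%. Endothelial-like cluster 0 took 56.3% and 25.8%. It held 2363 mock and 2948 ligated cells, beside the 85 and 60 of this cluster. UMI totals could be recovered for 77 of the 85 mock cells and 56 of the 60 ligated cells. The mock cells ranged from 1403 to 33157 UMIs with a median of 10659, and the ligated cells from 579 to 41492 with a median of 9945. At the median total, 1 UMI in 1 cell added 0.0110 to a mock value and 0.0168 to a ligated value, so a value of 0.5 rested on about 45.3 and 29.8 UMIs. Doublets were not called here, the tables hold no barcodes to compare between the libraries, and 8 mock and 10 ligated cells held over 20000 UMIs.

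Adult globin RNA, the cargo of the maturing red cell, took a larger mean share of UMIs in the mock than in the ligated cells. The 4 genes summed to 4409 of 10000 UMIs in mock cells (44.1%) and to 1918 in ligated cells (19.2%), a log2 difference of -1.20. Hbb-bs, an adult beta chain, stood at 2595 in mock and 934 in ligated cells. Hbb-bt, its neighbour on chromosome 7, stood at 345 and 111. The beta genes were therefore lower in the ligated library by a larger factor than the alpha genes, which stood at 849 and 491 for Hba-a1 and at 621 and 382 for Hba-a2. The ratio of summed beta to summed alpha was 2.00 in mock and 1.20 in ligated cells. Most other clusters, with far less globin RNA, also had a lower ratio in the ligated library, such as endothelial-like cluster 0 (1.98 to 1.46). The ratio was higher there for cluster 7 (1.83 to 2.15), cluster 8 (1.31 to 1.77) and cluster 11 (0.384 to 0.544). Whether the lower ratio is particular to the erythroid-gene cluster was not tested. Within each gene pair of this cluster the libraries were closer, with Hbb-bs over Hbb-bt at 7.52 and 8.43 and Hba-a1 over Hba-a2 at 1.37 and 1.28.

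The split between the copies is uncertain, because the reads of near-identical genes can be assigned to either. The coding sequences of Hba-a1 and Hba-a2 differ at 1 of 429 bases in the GENCODE vM21 transcripts, and those of Hbb-bs and Hbb-bt at 1 of 444. Of the 90-base stretches of the Hba-a1 transcript, 58.9% occur unchanged in Hba-a2, and of those of Hbb-bs 63.3% occur in Hbb-bt. Of the stretches of Hba-a2, 77.2% occur in Hba-a1, and of those of Hbb-bt 55.5% occur in Hbb-bs. No such stretch is shared by Hbb-bs and Hba-a1. How reads that fit both copies of a pair were counted is not given, so an effect on the ratio of beta to alpha was not tested.

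The same RNA was present at low level in every other cluster. The sum of the 4 globins ranged from 0.903 to 19.2 over the 11 other mock clusters (median 1.69), highest in macrophage-like cluster 5. Over the 11 other ligated clusters it ranged from 0.576 to 13.1 (median 1.28), highest in cluster 8, which carried acinar genes. The erythroid-gene cluster stood 230-fold above the highest other cluster in mock and 147-fold above it in ligated cells, and it held 97.4% and 85.5% of all globin signal of its library. In 9 of the 11 other clusters the sum was also lower in the ligated library. Alas2 was far scarcer than the globins and stood at 5.21 in mock and 2.74 in ligated cells, against at most 0.00406 and 0.0573 elsewhere.

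**Figure D1:**
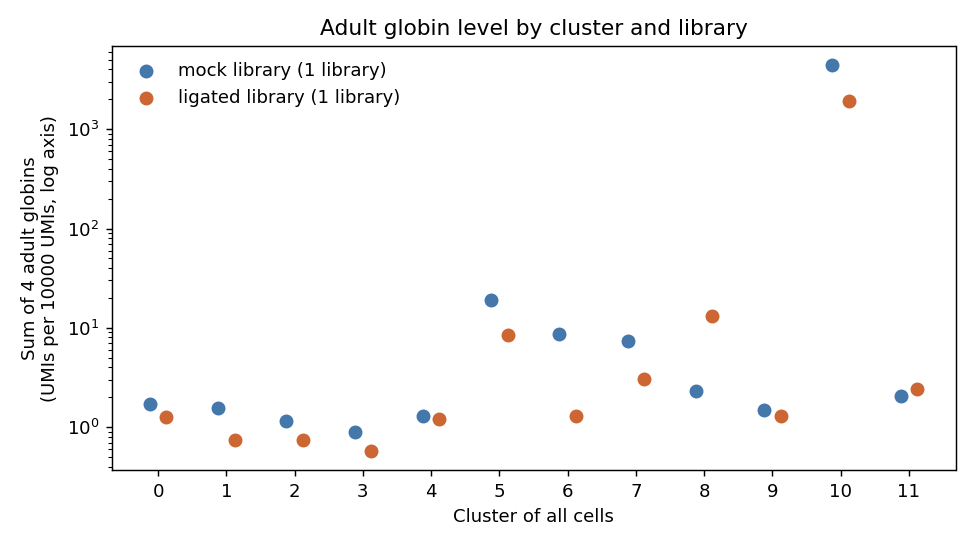
Sum of Hba-a1, Hba-a2, Hbb-bs and Hbb-bt in UMIs per 10000 UMIs (log axis) in each of the 12 clusters, with 1 point per library. Cluster 10 stands at 4409 in mock and 1918 in ligated cells, and no other cluster exceeds 19.2.

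The difference between the libraries was computed per gene as log2 of (ligated + 0.1)/(mock + 0.1), so that changes of scarce genes come out too small. A smaller globin share leaves a larger share for every other gene: the median difference over 9252 genes was 0.385, and it was 0.018 once the 4 globins were removed and both columns rescaled to 10000. All differences below are centred on the median of 0.385. A gene passed the size rule where its higher value was at least 0.5 and its centred difference at least 1 in size. Of 2994 genes with such a value, 282 passed as higher (9.42%) and 138 as lower (4.61%) in the ligated library. This balance depends on the scaling: higher genes made up 67.1% of those past the rule, 91.5% without centring, 55.6% with the globins removed and 53.2% with the centre taken over genes with a higher value of at least 0.5. Among genes past the rule, 59 were listed in 1 library only (40 higher and 19 lower), some of them 1 gene under 2 names.

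After centring, all 4 adult globins passed the rule as lower, at -2.02 for Hbb-bt, -1.86 for Hbb-bs, -1.18 for Hba-a1 and -1.08 for Hba-a2. Without centring they stood at -1.64, -1.47, -0.79 and -0.70, so the 2 alpha genes were then within the rule. No embryonic globin had a row in the table.

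Genes of haem synthesis and mitochondrial iron stood lower in the ligated cells by a median of -0.73 over 13 genes, where all genes together have a median of 0. Of 6 list genes with a value of at least 0.5, 3 passed the rule as lower and none as higher. Over all genes 4.61% passed as lower and 9.42% as higher. Alas2, the first enzyme of the pathway, was at 5.21 in mock and 2.74 in ligated cells (-1.29). Fech, the last enzyme, was at 0.860 and 0.399 (-1.33). The iron importer Slc25a37 was at 0.994 and 0.574 (-1.08). Tmem14c, a mitochondrial protein needed for late haem intermediates, stood at 0.751 and 1.47 (0.49), Iscu, the scaffold for iron-sulfur clusters, at 0.682 and 1.23 (0.38), and Glrx5, a partner in the same assembly, at 0.618 and 0.580 (-0.46). The other genes were below 0.5 in both libraries and so could not pass. Urod stood at 0.197 and 0.0877 (-1.05), Cpox at 0.125 and 0.0529 (-0.94), the mitochondrial carrier Slc25a38 at 0.114 and 0.0510 (-0.89), and Ppox at 0.0877 and 0.0480 (-0.73). Alad, an early enzyme of the pathway, stood at 0.103 and 0.469 (1.10).

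The membrane and skeleton of the red cell were represented weakly. Of 16 list genes 13 had a row, 11 were above 0 and only Epb41 reached 0.5, at 1.80 in mock and 1.30 in ligated cells (-0.82). Slc4a1, the anion exchanger of the membrane, stood at 0.0953 and 0.0435, with 0.000379 as the highest joint value elsewhere. Sptb and Icam4 were listed at 0, and Epb42, Rhag and Kel had no row.

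Among red cell enzymes and globin partners, 3 of 6 genes with a value of at least 0.5 passed the rule as lower and none as higher, with a median of -1.29 over 8 genes. The shares over all genes were 4.61% lower and 9.42% higher. Of the list genes past the rule, Bpgm stood at 4.59 in mock and 1.38 in ligated cells (-2.05), and Car2, a carbonic anhydrase, at 0.935 and 0.199 (-2.18). In the ligated library Car2 was higher in 9 other clusters, so its level there is not particular to these cells. The antioxidant genes were nearer the centre, with Prdx2 at 1.84 and 2.02 (-0.26), Gpx1 at 5.58 and 4.86 (-0.58) and Cat at 0.466 and 0.319 (-0.82). Blvrb, a reductase of biliverdin and flavins, stood at 0.740 in both libraries (-0.38). Tspo2, an erythroid membrane protein, stood at 0.158 in mock cells and was listed at 0 in ligated cells and in every other cluster. A count of 0 in the ligated cells allows a value of up to 0.0503, taken as 3 UMIs at the median total and covering counting error only. Hemgn was listed at 0, and Ahsp, Car1 and Pklr had no row.

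Genes of organelle clearance and terminal maturation gave a median of -0.71 over 12 symbols, with 5 of 10 past the rule as lower and 2 as higher. Over all genes 4.61% passed as lower and 9.42% as higher. Mkrn1, a ubiquitin ligase, stood at 3.68 and 1.72 (-1.44), Ube2o, the ubiquitin enzyme that clears ribosomal proteins in reticulocytes, at 0.546 and 0.199 (-1.498), and Bnip3l, the receptor for removal of mitochondria, at 2.42 and 1.53 (-1.02). Isg20, a ribonuclease, stood at 1.09 and 0.429 (-1.55), but it was higher in cluster 2 in both libraries. Ube2l6 stood at 1.69 and 1.24 (-0.81) and was highest in this cluster in both libraries. Fbxo7, a component of a ubiquitin ligase, passed as higher, from 0.129 to 0.526 (1.07). Fam46c and Tent5c are names of 1 gene, a polymerase that adds to poly(A) tails, the former listed only in the mock library at 1.41 and the latter only in the ligated library at 0.717. Read as 1 gene the difference is -1.27, in place of 1 lower and 1 higher symbol. Trim58 and Alox15 were listed at 0.

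Over the 5 erythroid lists together, with renamed symbols joined, 15 of 26 genes with a value of at least 0.5 passed the rule as lower (57.7%) and Fbxo7 alone as higher. Without the globins it was 11 of 22. Over all genes 4.61% passed as lower, but the lists were chosen with earlier results of these data known and hold the genes that define the cluster, so nothing is read from the gap. The medians of these 5 lists were below 0 under each of the alternatives that gave a value, ranging for haem synthesis from -1.30 with a pseudocount of 0.01 to -0.15 with a pseudocount of 1. In cluster 0 the haem list had a median of 0.03, the enzyme list of 0.11 and the clearance list of -0.02, and in cluster 5 they had medians of 0.23, 0.03 and -0.05. The difference between clusters was not tested.

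**Figure D2:**
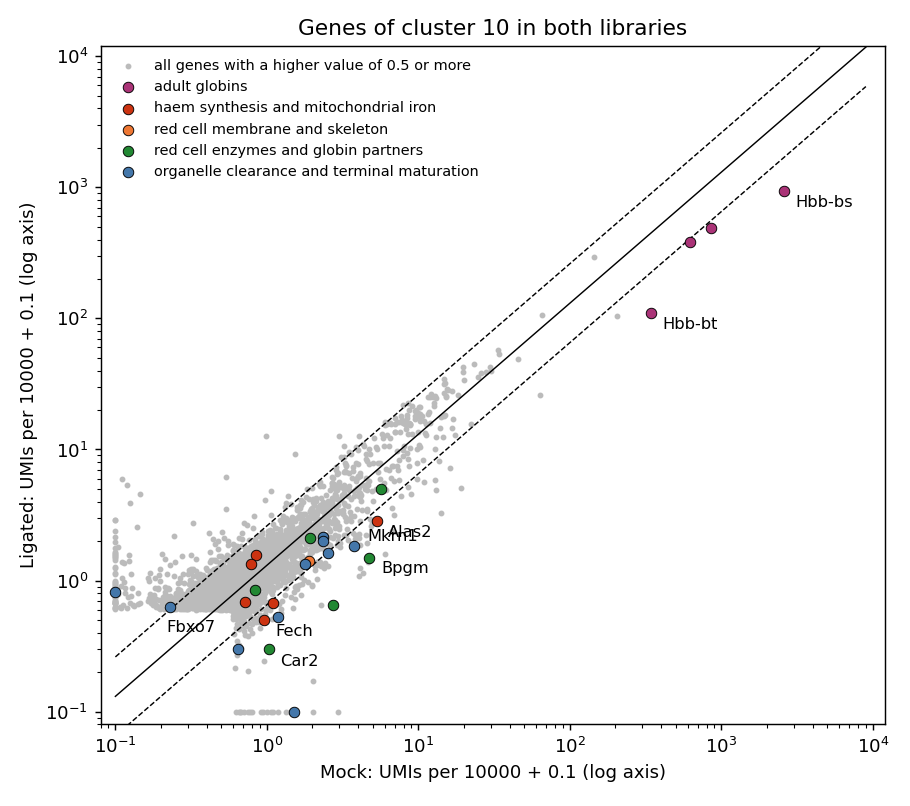
Values of cluster 10 in the mock (x) and ligated (y) library, in UMIs per 10000 with 0.1 added (log axes), 1 point per gene whose higher value is at least 0.5. The solid line is the median shift of 0.385, the dashed lines lie at a centred difference of 1 in size, and Hbb-bs, Hbb-bt, Bpgm, Car2 and Mkrn1 lie below the lower one.

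Regulators of earlier erythroid stages were scarce. Klf1, Nfe2 and Gfi1b were listed at 0 and Gata1 had no row. Lmo2 (0.673 in mock and 1.06 in ligated cells), Zfpm1 (0.629 and 0.595), Tal1 (0.159 and 0.116) and Ldb1 (0.126 and 0.178), which are partners of the erythroid complex, were each higher in an endothelial-like or Schwann cell cluster in the joint table. Tfrc, the transferrin receptor of haemoglobin-making cells, stood at 0.0194 and 0.0363, below its joint value of 0.132 in cluster 7. The erythropoietin receptor Epor was listed at 0 in mock cells and stood at 0.0324 in ligated cells. Kit stood at 0 and 0.0511 and Myb at 0 and 0.00431. Ferritin, which stores iron in many cell types, was abundant: Fth1 stood at 23.1 and 45.2 (0.58) and Ftl1 at 16.5 and 27.9 (0.36), with joint values of 110 and 57.7 in macrophage-like cluster 5. Neither passed the rule. Of 19 cell cycle genes 3 had a value of at least 0.5 and none of these passed it, and Mki67 stood at 0.0239 and 0.0417 against 7.39 in the cycling cluster, 11.

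The erythroid genes were not the ones that differed most. Among genes above 0 somewhere in both libraries, the largest falls in ligated cells began with Retnla, at 2.83 in mock cells and listed at 0 in ligated cells, and Fam220a, at 1.91 and 0.0714. Fam220a has 2 overlapping gene records of this name in GENCODE vM21, and its centred difference was near -1.8 in clusters 0, 4 and 5 too. Retnla was also at 1.25 in mock macrophage-like cells and listed at 0 in ligated ones. AY036118 (14.05 and 3.17), Camk2n1 (0.858 and 0.144), Slc6a6 (5.96 and 1.48), Sgk1 (4.202 and 1.04), Cxcl12 (19.0 and 4.98), Fabp5 (3.96 and 0.986) and Fn1 (0.651 and 0.104) were also among the 10. Slc6a6, the taurine transporter, the kinase gene Sgk1, the chemokine gene Cxcl12 and the lipid carrier gene Fabp5 stood at -2.32, -2.30, -2.30 and -2.29 here and at -1.83, -1.94, -2.08 and -1.68 in endothelial-like cluster 0. Fn1, the fibronectin gene, stood at -2.27 here, at -1.21 in cluster 4, where it fell from 4.29 to 1.83, and at -1.39 in cluster 5. In cluster 0 it was scarce (0.0677 and 0.104).

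Most of the 10 largest rises were also seen in the clusters most like this one or in macrophage-like cells. Nme2 (0.0443 in mock and 4.45 in ligated cells), Atp6v0c (0.0244 and 3.77), Rnasek (0 and 1.88), Mrpl53 (0 and 1.46) and Rpl13a (0.891 and 12.6) stood at 3.30 to 4.595 here and at 1.98 to 5.15 in clusters 0, 4 and 5. Of the 10 rises, 4 (Nme2, Rnasek, Mrpl53 and Rpl13a) overlap exons of another annotated gene on their own strand, so their values are uncertain. Atp6v0c overlaps none. Over all clusters, 684 symbols were above 0 in the mock library only and 3150 in the ligated library only. Whether the libraries were counted with different gene annotations, and its part in these rises, was not tested. The remaining rises were the chemokine Ccl5 (0.0109 and 5.86), Gzmb (0.0239 and 1.47) and Gzmc (0.0382 and 2.48), granzymes of cytotoxic lymphocytes, the matrix protein Mgp (0.0189 and 5.24) and the antibody light chain Igkc (0.00355 and 1.70). Ccl5 stood at 5.36 here and at 2.34 to 2.89 in clusters 0, 4 and 5, Gzmc at 3.84 and at 1.64 to 3.39, and Gzmb at 3.28 and at 1.21 to 2.58. Mgp stood at 5.10 here, at 4.06 in cluster 0, at 4.32 in cluster 5 and at 0.37 in cluster 4. The ligated value of Igkc equals 62 UMIs of the single cell of 6065 UMIs, so 1 cell carried it. The levels of these 5 genes here were below those of the clusters where they were highest in the ligated library, which stood at 94.99 for Ccl5, 18.3 for Gzmb, 46.5 for Gzmc, 294 for Mgp and 2.27 for Igkc.

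Endothelial genes were present at high level. After removal of the globins, the 11 of 12 endothelial markers with a value of at least 0.5 in cluster 0 stood at a median of 84.3% of their level in cluster 0 in mock and 59.5% in ligated cells. All 12 were above 0 in both libraries, and their sum was 97.4 in mock and 84.5 in ligated cells. Pecam1 stood at 7.18 and 9.64 (0.04), Flt1, a receptor for vascular growth factor, at 22.3 and 15.6 (-0.89), and Plvap, a protein of capillary pores, at 16.5 and 14.5 (-0.56). Kdr (13.6 and 8.07, -1.13) and Tie1 (2.95 and 1.85, -1.03) passed the rule as lower.

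Capillary genes stood further from the centre than the other endothelial lists, with 5 of 7 past the rule as lower, 1 as higher and a median of -1.34. The shares over all genes were 4.61% lower and 9.42% higher. Fabp4, a fatty acid carrier, stood at 63.2 in mock and 25.9 in ligated cells (-1.67), Rgcc at 12.9 and 4.79 (-1.79), Cd300lg at 3.93 and 2.00 (-1.32), the fatty acid receptor Cd36 at 2.44 and 1.18 (-1.37) and the carbonic anhydrase Car4 at 2.30 and 1.14 (-1.34). The water channel Aqp1 passed as higher, from 0.438 to 3.44 (2.34). The same genes in cluster 0 stood at -1.65 for Fabp4, -1.64 for Rgcc, -0.68 for Cd300lg, -1.22 for Cd36, -0.89 for Car4 and 2.73 for Aqp1, and the list median there was -0.89. The arterial list had a median of 0.66 over 7 genes, with Fbln5 alone past the rule (0.0410 and 0.706, 2.13).

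Macrophage markers stood higher in the ligated cells, with 5 of 12 past the rule as higher, none as lower and a median of 0.76. Over all genes 9.42% passed as higher and 4.61% as lower. The markers past the rule were Cd68 (0.501 and 1.79), Adgre1 (0.166 and 0.741), Tyrobp (3.39 and 9.39), Fcer1g (3.15 and 10.5) and Ms4a7 (1.73 and 4.91). The complement genes C1qa (7.09 and 16.05), C1qb (6.12 and 12.8) and C1qc (4.73 and 9.13) were within the rule. All 13 were above 0 in both libraries, with sums of 31.1 and 73.7. After removal of the globins, the 12 with a value of at least 0.5 in cluster 5 stood at a median of 24.1% of their level there in mock and 32.5% in ligated cells. In cluster 0 the list median was 1.49. Slc40a1, Cd163, Spic and Cd5l, from a list of 10 genes of iron recycling by macrophages, were listed at 0 here in both libraries. Cd163, Spic and Cd5l were at most 0.00663 in any other cluster of the joint table, so their 0 says little about this cluster. The other list genes were above 0. Hmox1 stood at 0.0536 and 0.172, Blvra at 0.267 and 0.562 and Lrp1 at 0.0812 and 0.419. Axl stood at 0.287 and 0.359, Mertk at 0.338 and 0.171 and Slc11a1 at 0.372 and 0.246. The list median was 0.15 over 6 genes.

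Other cell types were near 0 in mock cells and low in ligated cells. Natural killer markers summed to 0.0918 in mock and 4.90 in ligated cells, which is 0.173% and 9.94% of cluster 1 by the median gene after removal of the globins, with Nkg7 (0.0141 and 1.26) and Gzmb past the rule. T cell markers summed to 0.196 and 1.65, with Cd4 and Cd8a listed at 0. B cell markers summed to 0.282 and 3.49, with Ighm (0.270 and 0.985) and Igkc past the rule. The ligated values of Igkc, Iglc2 (0.275), Cd79a (0.247) and Ms4a1 (0.0275) equal 62, 10, 9 and 1 UMIs of the same cell of 6065 UMIs. Fibroblast markers summed to 0.113 and 2.46, with Col3a1 (0 and 0.656) and Dcn (0.0293 and 0.773) past the rule. Ductal markers summed to 0.448 and 6.64, of which the kallikrein Klk1 made up 0.434 and 6.07, while Epcam, the depleted epithelial antigen, stood at 0 and 0.0152. Mural markers summed to 0.340 and 0.633. Not all lists stood higher in the ligated cells. Acinar markers summed to 0.236 and 0.0638, Schwann markers to 0.141 and 0.0923, dendritic cell markers to 0.135 and 0.0181 and platelet markers to 0.447 and 0.351. Neutrophil markers other than Csf3r were listed at 0 where they had a row, and both mast cell markers with a row were at 0. The fibroblast, T cell and natural killer lists stood higher in the ligated library elsewhere too. Fibroblast medians were 1.49 here, 1.53 in cluster 0 and 1.39 in cluster 5. T cell medians were 0.94, 0.71 and 1.60, and natural killer medians were 1.87, 0.83 and 0.86. Klk1 stood at 3.15 here, 2.43 in cluster 0 and 2.61 in cluster 5. The part of these other cell types, and of RNA free in the suspension, in the lower erythroid values of the ligated library was not tested. With the globins removed from both columns, Alas2 stood at 9.32 and 3.39, a centred difference of -1.45, and Bpgm at -2.22.

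**Figure D3:**
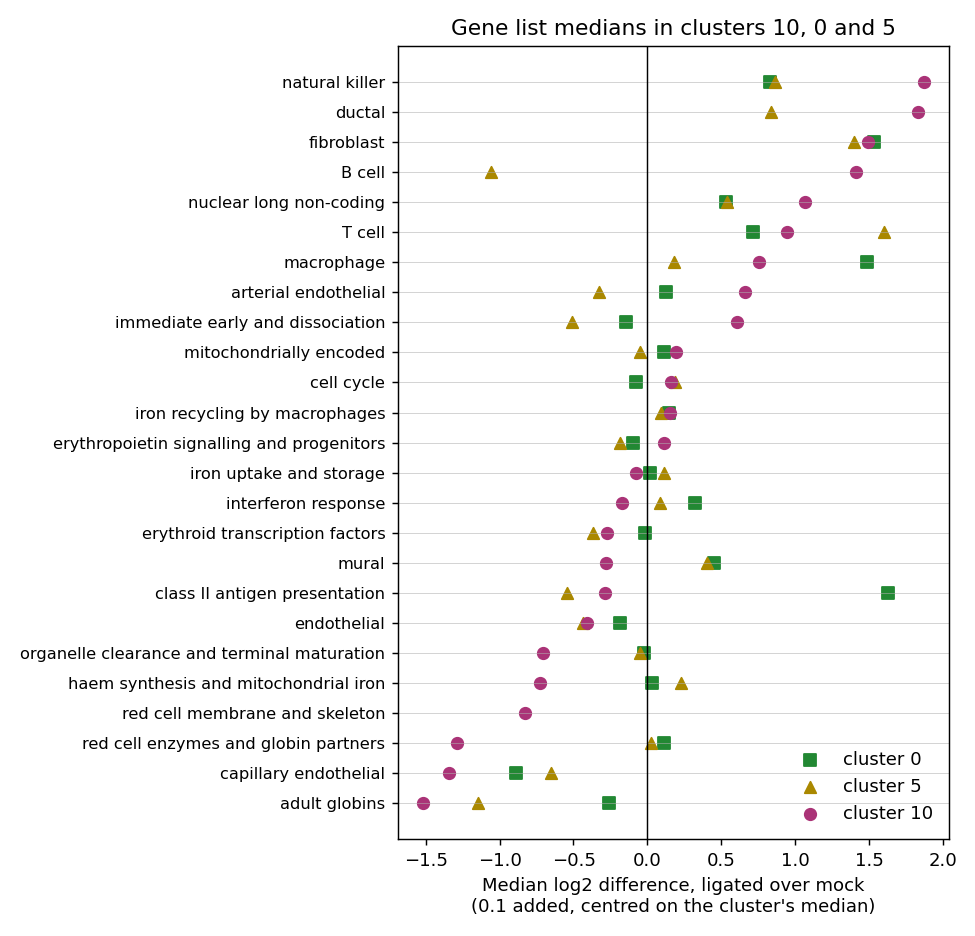
Median centred log2 difference (ligated over mock) of each gene list with at least 3 genes of a mean of at least 0.05, in the erythroid-gene cluster 10 (circles), endothelial-like cluster 0 (squares) and macrophage-like cluster 5 (triangles). The haem, enzyme and clearance lists lie at -0.73, -1.29 and -0.71 in cluster 10 and between -0.05 and 0.23 in the other 2 clusters.

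Genes that mark cell state differed as well. Immediate early genes, which respond within minutes to stimuli that include dissociation, had a median of 0.60 over 18 genes, with Fos at 2.74 in mock and 6.85 in ligated cells (0.90) and Fosb alone past the rule (0.373 and 1.90, 1.70). In clusters 0 and 5 the median was -0.14 and -0.51. Nuclear long non-coding RNAs, which enucleated red cells lack, had a median of 1.07 over 4 genes. Malat1 stood at 144 and 296 (0.65), Xist at 3.22 and 7.35 (0.78), Neat1 at 0.585 and 2.19 (1.35) and Kcnq1ot1 at 0.216 and 1.48 (1.93), the last 2 past the rule. The list median was 0.53 in cluster 0 and 0.54 in cluster 5. Among the clusters, Malat1 ranked 9 of 12 in the mock and 10 of 12 in the ligated library. Mitochondrially encoded genes summed to 142 and 244 with a median of 0.19 over 13 genes, and only mt-Atp8 passed the rule, as lower (2.14 and 1.28, -1.08). Interferon response genes had a median of -0.17 and class II antigen presentation genes of -0.29, whereas the class II median in cluster 0 was 1.63. Of these 5 lists, the direction of the interferon and class II medians turned without centring, to 0.21 and 0.10.

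Single cells could be read out of the means for scarce genes. A joint value times the number of cells is a sum of 1 over the UMI totals of the cells that hold the gene, and for 5329 of 13923 genes above 0 (38.3%) exactly 1 set of recovered cells gave that sum. Abundant genes, the globins among them, cannot be placed in this way, and endothelial genes are mostly too abundant as well, so the placed genes show which rare transcripts sat together and not the full makeup of a cell. Mock cells held a median of 10.5 placed genes per 1000 UMIs and ligated cells 18.2. The globins, which cannot be placed, took 44.1% of mock and 19.2% of ligated UMIs. More symbols were also listed in the ligated library only (3150) than in the mock library only (684). The part of both in this difference, and in the split of cells below, was not tested. A set of 10 mock cells (12.99% of those recovered) and 0 ligated cells held fewer than 3 per 1000, a limit set after the values were seen. They had 2701 to 11619 UMIs, with a median of 9996.5 against 10778 in the other mock cells. The cell with 9691 UMIs held only 9 placed genes, among them the skeleton gene Add2, and the cell with 10302 UMIs held 10. The next mock cell above the limit held 3.32 per 1000 and the lowest ligated cell 4.49.

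**Figure D4:**
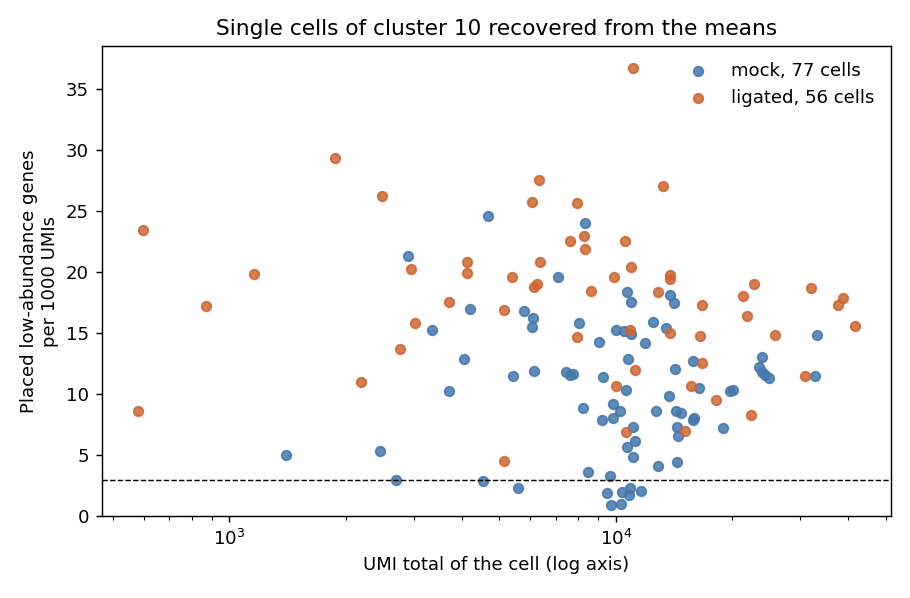
Single cells of cluster 10 by UMI total (x, log axis) and number of placed scarce genes per 1000 UMIs (y), 77 mock and 56 ligated cells. The 10 cells below the dashed line at 3 are all mock cells, most of them near 10000 UMIs.

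Scarce erythroid genes sat in single cells of different depths. Ank1, which anchors the skeleton, was found in mock cells of 9641 and 19777 UMIs, and Tfrc in 3 mock and 4 ligated cells with 1 UMI each. Kit, a receptor of progenitors and mast cells, was found in 3 ligated cells, and Myb and Epor in 1 ligated cell each. Some recovered cells carried several genes of another class. The rule, set after the values were seen, asked for at least 4 placed genes of a class and at least 50% of the cell's placed class genes, where a class gene stands at least 4-fold above the other classes in the joint table. It held in 9 mock cells (5 epithelial, 2 cycling, 1 Schwann and 1 macrophage) and 8 ligated cells (2 macrophage, 2 cycling and 1 each of endothelial, epithelial, fibroblast and Schwann). The classes had unequal numbers of placed genes, from 159 epithelial, 128 cycling and 108 Schwann to 45 endothelial and 16 lymphocyte genes. These counts are therefore not shares of cell types. In the mock cell of 14709 UMIs the epithelial call rested on 4 genes at 1 UMI each. The ligated cell of 21368 UMIs held 37 fibroblast genes, among them C1ra, Clec3b, Col6a3, Lama2 and Pdgfra. The mock cell of 19777 UMIs held 20 epithelial genes, with Krt18 and Dcpp1, beside 1 UMI of Ank1, and the mock cell of 13829 UMIs held 18. The mock cell of 10868 UMIs, one of the cells with few placed genes, held 8 Schwann genes, Ncam1 and Chl1 among them. Platelet genes also sat together, with Clec1b, Ppbp, Itga2b and Treml1 in the mock cell of 14306 UMIs and Ppbp, Itga2b and Itgb3 in both the mock cells of 24383 and 24875 UMIs. Whether such cells are doublets was not tested.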

How the data were processed

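Single cells of 2 libraries, 1 per group, were measured by droplet RNA sequencing. The authors deposited cluster means, of which the joint table and the table split by operation were used here. Per the submitters' processing notes, Cell Ranger 6.0.1, Seurat and build mm10 were used, while filters, normalization and clustering settings are not given in the sources used here. The deposited values are linear means over cells of a gene's UMIs per 10000 UMIs, as every column sums to 10000, and they are neither counts nor log values. The tables hold 20140 genes, and 21 symbols turned into dates were restored.

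Cell numbers and UMI totals were recovered from the weights of the libraries in the joint means and from sums of 1 over whole UMI totals, a procedure tested on simulated data. Differences were log2 of (ligated + 0.1)/(mock + 0.1), centred on the median over genes with a mean of at least 0.05. No test was made, because each group has 1 library. The genes named are those of the lists, the 15 with the largest ratio over the highest other cluster, and the 10 largest rises and 10 largest falls past the size rule among genes above 0 in some cluster of both libraries. Genes named from single cells were chosen after their values were seen. Some genes of the lists and of these rankings are not reported here. The cluster and the lists were chosen with earlier results of these data known. Alternatives were other pseudocounts, centres, minimum values and sizes, removal of the globins, omission of genes listed in 1 library only and, added after the data were seen, joining of 159 pairs of renamed symbols. Promoters came from the RefSeq table and transcripts from GENCODE vM21. Python 3.11.15, numpy 2.4.6, pandas 2.3.3, scipy 1.17.1, numba 0.67.0, matplotlib 3.10.9 and Biopython 1.88 were used.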

Additional observations from a re-analysis of the deposited data

Results flagged for a closer look

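The summed adult globins went the opposite way in 2 clusters. They were lower in the ligated library in the erythroid-gene cluster (log2 difference -1.20), but higher in cluster 8, from 2.31 to 13.1 per 10000 UMIs (2.45), and in cluster 11, the cycling cells, from 2.05 to 2.44 (0.24). Cluster 8 has 25 mock and 264 ligated cells and cluster 11 has 22 mock and 59 ligated cells. With 1 library per group, the difference between clusters was not tested.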

How the results depend on the processing

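No paired analysis was possible because each group has 1 library and no result comes from a test, and for the same reason no replicate could be left out. Of 47 alternatives to the cell shares, the globin sum, the counts and the list medians, 28 stayed within 1.5 times the main value or within its interval. Those for the cell shares reused the library weights behind the main shares. They could not differ, so they say nothing about how firm the shares are. The count past the size rule (420, with 282 higher and 138 lower) was 99 with a pseudocount of 1 (68 higher, 31 lower), 753 without centring (689 and 64), 1114 with no minimum value (589 and 525), 98 with a value of at least 2 (42 and 56) and 126 with a size of at least 2 (91 and 35). With the globins removed it was 617 (343 and 274). The number of list medians above 0 was 13 of 26. With list genes of a mean of at least 0.5 it was 5, over fewer lists, because some then had fewer than the 3 genes needed for a median. The genes highest in the cluster numbered 13, and 7 with a value of at least 2 or 8 with a pseudocount of 1. Of 364 alternatives for 53 named genes 1 reversed: Tent5c stood at 2.65 as listed and at -1.27 when joined with Fam46c. The cause of each change was not tested beyond the setting itself. Depth limits values near 0.0331 in mock and 0.0503 in ligated cells, the level of 3 UMIs at the median total.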
